A study of Mus musculus with 6 samples.

Results

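Cytosolic ribosomal proteins form the protein part of the large and small subunits of the ribosome, the machine that translates mRNA into protein in every cell. Their genes were followed in RNA sequencing of dorsal pancreata from E13.5 mouse embryos, in 3 libraries of a Bicaudal C1 (Bicc1) knockout (KO) and 3 wild-type (WT) libraries. Members were chosen by symbol alone: an Rpl or Rps name with a number and at most 1 of the letters a, l, x or y, plus Rpsa, Rplp0, Rplp1 and Rplp2, without pseudogenes or the Rps6 kinases. Of 83 matching symbols, 78 were kept out of 24389 genes in the files, 47 of the large and 31 of the small subunit. The matching Rpl6l and Rps4l are annotated as pseudogenes and were left out. No value was taken for Rpl24, Rpl41 and Rpl32l, whose identifiers were not matched to a row. Both groups shared a mixed C57BL/6 and ICR background and differed, by the labels, only in the Bicc1 genotype. Bicc1 encodes an RNA-binding protein, and the series asks what its loss does to the RNAs of the embryonic pancreas. The labels name neither the knockout allele nor whether a library came from 1 embryo or a pool, so a p-value here rests on the spread among these libraries alone, part of which may be technical.

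Ribosomal proteins are needed in nearly equal amounts, and their mRNAs are known for a 5′ terminal run of pyrimidines (the TOP motif) through which mTORC1 and LARP1 adjust their translation. Many of the genes carry small nucleolar RNA (snoRNA) genes in their introns, which guide chemical modification of ribosomal RNA. They are also known for many processed pseudogenes, intronless copies made by reverse transcription of the mRNA, which short reads may not tell from the parent gene.

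Each library gave 1 deposited value per gene, whose unit is not stated, with a floor of 0.01. Read counts do not go with them, and since depth is unknown, counting error cannot be given. Whether the values were divided by transcript length is not stated, so levels of different genes are compared here only as they stand in the files. Bicc1 was 3.96, 4.91 and 4.48 in KO 1, 2 and 3, against 19.7, 19.5 and 18.2 in WT 1, 2 and 3, with no overlap. Over 13911 genes with a mean of at least 1, the 2 genes with an adjusted p under 0.05 in limma were Bicc1 and 4930533K18Rik, a gene with only a systematic name, given here after its values were seen. Both were lower in KO. The first principal component of the other tested genes, computed without the ribosomal protein genes, held 56.8% of the variance. It did not fully separate the genotypes. KO 1 to 3 scored 10.66, 21.6 and -4.805, and WT 1 to 3 scored -16, -21.05 and 9.598. The component put KO 1, KO 2 and WT 3 on 1 side, called side A here, and KO 3, WT 1 and WT 2 on the other, side B. Within each side, KO scored above WT. Of 14 markers of pancreatic epithelium, 14 were tested, with 5 higher and 9 lower in KO and a median log2 difference of -0.085. Their summed value ran from 712.5 to 1027 in KO and from 780.7 to 910.4 in WT. The 11 erythroid markers with a row summed to 2968, 2143 and 1656 in KO 1 to 3 and to 1644, 1285 and 2638 in WT 1 to 3, so that the 3 libraries of side A were the highest. Of 9 endothelial markers, 8 were higher in KO, as were 53.5% of all genes, and 5 had all KO values above all WT values, as had 7.67% of all genes.

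The first property of these genes to be read beside every value is how much of their coding sequence exists elsewhere. Every coding sequence was divided into overlapping words of 32 bases and searched for in the transcripts of all other genes of the reference annotation. At least 1 word was found in another gene for 77 of 78 genes, at least 80% of the words for 60, and all of them for 30. For 61 genes at least 50% of the words lay in 1 other gene with its own row in the files, and 51 of the 61 had the lower mean value of the pair. In 20 of the 61 the ribosomal protein gene stood below 10% of the copy. The files hold 181 named pseudogenes of these genes, and 36 of the 55 members with such a row were lower than their highest pseudogene.

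4 pairs of a parent gene and an intronless copy, picked after their values were seen, are printed because they show what a read across an exon junction would have to tell apart. Each line holds 60 coding bases, 5′ to 3′, from the GENCODE vM21 transcripts (build GRCm38), with the parent's exon junction after base 30, and capitals mark the bases that differ within a pair. The junction joins exons 2 and 3 in Rps27, Rpl39 and Rpl9 and exons 3 and 4 in Rps15a.
Rps27: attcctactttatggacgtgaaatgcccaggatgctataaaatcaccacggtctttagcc
Rps27rt: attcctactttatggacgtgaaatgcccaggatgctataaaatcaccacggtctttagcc
Rpl39: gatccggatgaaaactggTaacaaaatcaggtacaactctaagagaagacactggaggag
Rpl39-ps: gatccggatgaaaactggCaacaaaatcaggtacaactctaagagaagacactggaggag
Rpl9: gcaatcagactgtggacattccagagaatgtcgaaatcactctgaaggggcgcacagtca
Rpl9-ps6: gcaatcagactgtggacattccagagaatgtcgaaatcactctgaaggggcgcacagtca
Rps15a: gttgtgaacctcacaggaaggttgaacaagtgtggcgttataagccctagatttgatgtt
Rps15a-ps7: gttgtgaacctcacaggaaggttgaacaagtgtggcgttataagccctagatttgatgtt

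The stretches of Rps27, Rpl9 and Rps15a had 0 mismatches to their copies, and that of Rpl39 had 1, T19C counted from the first printed base. The deposited means over the 6 libraries were far apart in each pair. Rps27 had a mean of 106.6 and its retrogene Rps27rt 1389. Rpl39 had 167.4 and Rpl39-ps 3800. Rpl9 had 4.47 and Rpl9-ps6 618.3. Rps15a had 53.8 and Rps15a-ps7 704.9. In all 4 pairs the row of the copy held the larger value. How reads that match both genes were assigned is not stated, so a member's value may not hold all reads of its mRNA.

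**Figure D1:**
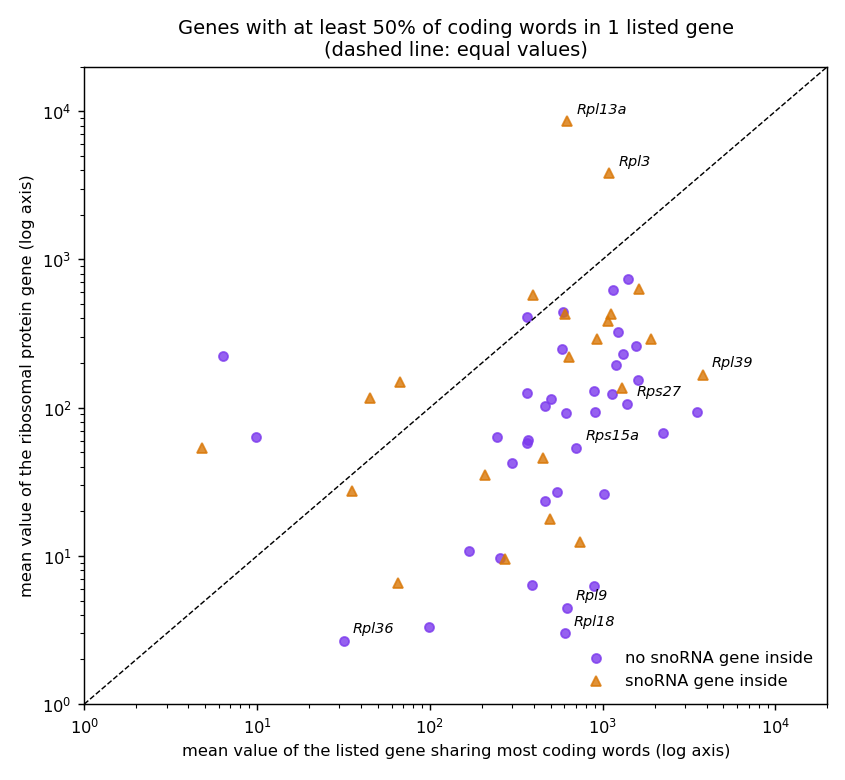
Mean deposited value over 6 libraries of tested ribosomal protein genes with at least 50% of their coding words in 1 other listed gene (vertical, log axis) against the mean of that gene (horizontal, log axis); circles have no snoRNA gene inside and triangles at least 1. Most points lie below the dashed line of equal values, with Rpl39 at 167.4 against 3800 for its copy, while Rpl13a and Rpl3 lie above it.

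The members' values spanned a wide range. Of the 78 genes, 6 had a mean above 1000, 37 lay between 100 and 1000, 22 between 10 and 100, 10 between 1 and 10, and 3 below 1. The 6 highest were Rpl13a, Rps3, Rpl32, Rpl3, Rps20 and Rpl4, and all 6 hold snoRNA genes. Over the 75 tested members, the median of the mean value was 290.5 in the 29 with a snoRNA gene inside on the same strand and 93.7 in the 46 without. By copies, it was 812.4 in the 8 with under 25% of coding words in any 1 other listed gene and 106.6 in the other 67. Rps3, Rpl32, Rps20, Rpl4 and Rpl23 belong to both the snoRNA and the low-copy group. The part of snoRNA reads in these values was not tested. Rpl13a had the highest mean, with 9608, 9404 and 8435 in KO and 7993, 6845 and 9477 in WT. At the other end of the tested large subunit genes stood Rpl36, with 3.44, 6.28 and 1.32 in KO and 0.710, 0.760 and 3.57 in WT. In the small subunit, Rps29, Rps21 and Rps12 were lowest, with means of 3.29, 3.88 and 9.56.

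**Figure D2:**
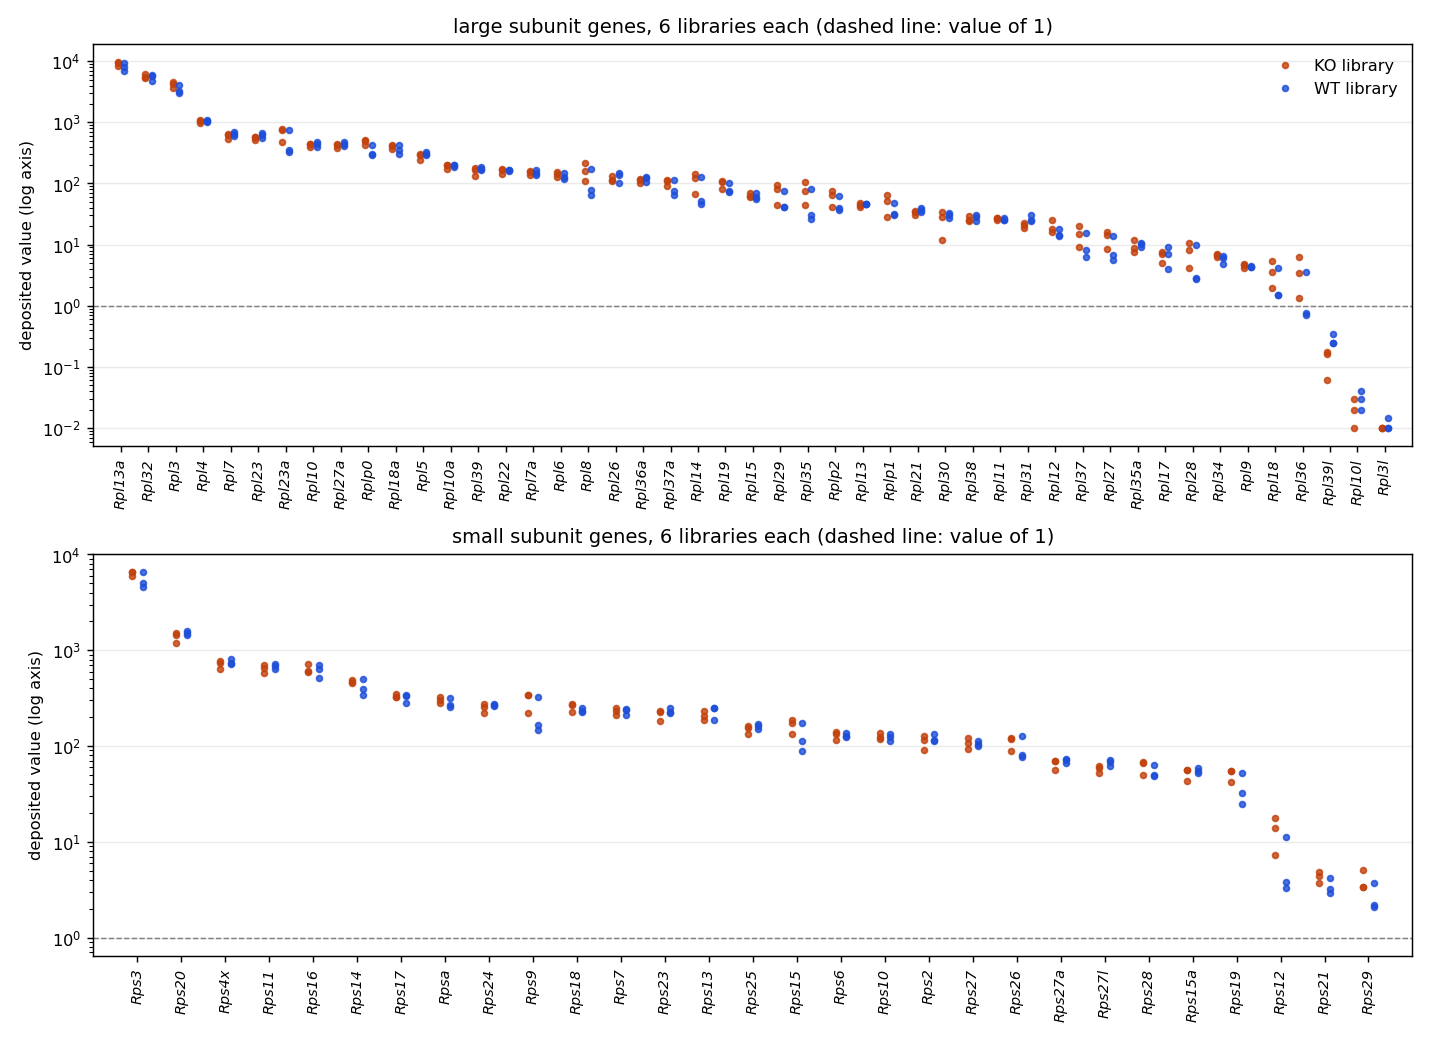
Deposited value (log axis) of large (top) and small (bottom) subunit genes in every library, KO in orange and WT in blue, ordered by mean. The genes run from 8627 for Rpl13a down to Rpl3l near the floor of 0.01, and the KO and WT points of most genes overlap.

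3 paralogs with restricted expression were close to the floor. Rpl3l, known from heart and skeletal muscle, was listed at 0.01 in 5 libraries and at 0.0148 in WT 3. Rpl10l, a retrogene known from testis, lay between 0.01 and 0.04. Rpl39l, also known from male germ cells, was 0.178, 0.06 and 0.160 in KO and 0.249, 0.348 and 0.244 in WT. Its groups did not overlap, but all 6 values are below 1 and the gene was not tested, as were the other 2.

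Against WT, no ribosomal protein gene passed the test in KO. Of the 75 tested, 0 had an adjusted p under 0.05 in limma, where 0.0144% of all genes did, and the lowest adjusted p was 0.469. At an unadjusted p under 0.05, 2 members were higher in KO, against 5.89% of all genes, and 2 were lower, against 4.36%. No member had all KO values above all WT values, which 7.67% of all genes had, and 2 had all KO values below all WT values, which 8.77% of all genes had. The mean log2 value was higher in KO for 45 of the 75 members and lower for 30, and it was higher for 53.5% of all genes. The median difference was 0.06 on the log2(value + 1) scale, in the large (0.06, 44 genes) as in the small subunit (0.06, 31 genes), and 0.01 over all genes tested. Single members ranged from -0.39 (Rpl30) to 1.07 (Rps12).

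The 2 members with the groups apart were both lower in KO. Rpl31, a large subunit protein beside the tunnel through which new proteins leave, was 21.2, 18.4 and 22.6 in KO and 30.0, 24.3 and 24.96 in WT. Its mean was 20.7 ± 2.10 (SD, n = 3) in KO and 26.4 ± 3.11 (SD, n = 3) in WT, so KO stood at 78.5% of WT. The log2 difference was -0.33 (SE 0.108; limma, adjusted p 0.469). All coding words of Rpl31 also occur in Rpl31-ps8, whose mean was 464.3. Rps27l, a paralog of Rps27 known as a p53 target, was 59.2, 62.0 and 52.2 in KO and 71.1, 62.5 and 67.5 in WT. KO 2, at 62.02, lay just below WT 2, at 62.51, so the groups were separate by a narrow margin. Its log2 difference was -0.21 (SE 0.0878; limma, adjusted p 0.469).

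The highest-ranked members on the other side overlapped between groups. Rplp0, which anchors the stalk that recruits elongation factors, was 494.6, 511.4 and 421.4 in KO and 307.9, 290.3 and 422.0 in WT. KO 3 lay just below WT 3, and the log2 difference was 0.50 (SE 0.151, adjusted p 0.469 in limma). Its stalk partners Rplp1 and Rplp2 overlapped more widely. Rplp1 was 51.0, 65.6 and 27.8 in KO and 30.9, 31.2 and 48.8 in WT, and Rplp2 was 65.8, 75.3 and 41.1 in KO and 40.3, 37.1 and 63.1 in WT. Both were high in KO 1, KO 2 and WT 3 and low in the other 3 libraries. Rps12, a small subunit protein of the beak, was 13.9, 17.9 and 7.34 in KO and 3.84, 3.27 and 11.1 in WT. Its log2 difference of 1.07 (SE 0.436, adjusted p 0.469 in limma) was the highest of all members, but WT 3 lay above KO 3. All coding words of Rps12 also occur in Rps12-ps3, which had a mean of 272.8.

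Rps9 and Rps19, proteins of the small subunit, repeated this order of libraries. Rps19, the gene most often mutated in Diamond-Blackfan anaemia, was 54.6, 54.9 and 42.6 in KO and 31.99, 24.5 and 52.4 in WT, a log2 difference of 0.53 (SE 0.251, adjusted p 0.471 in limma). Rps9 was 339.7, 339.2 and 222.5 in KO and 167.0, 146.9 and 322.2 in WT. In both genes WT 3 stood above KO 3. Rps29, Rps21 and Rpl12 were also among the members with the lowest p on the higher side, with log2 differences of 0.45, 0.26 and 0.34.

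Other members of known special roles lay close to 0. Rpl5 and Rpl11 bind the 5S ribosomal RNA and, when free, MDM2. Rpl5 was 295.1, 239.0 and 298.3 in KO and 323.7, 298.2 and 292.7 in WT, with a log2 difference of -0.14 (SE 0.103). Rpl11 was 25.4, 27.3 and 27.1 in KO and 27.3, 25.2 and 24.9 in WT, a log2 difference of 0.04 (SE 0.0699). Rps6, the substrate of S6 kinase, was 132.0, 115.8 and 140.8 in KO and 137.5, 125.1 and 128.4 in WT. The KO mean of Rps6 was 99.4% of the WT mean. Rpsa, also described as a laminin receptor, was 321.2, 303.9 and 280.1 in KO and 267.4, 252.9 and 317.3 in WT, a log2 difference of 0.12 (SE 0.103). The X-linked Rpl10 and Rps4x had log2 differences of -0.03 and -0.07. Rpl22 and Rpl38, known for roles in lymphocyte and skeletal development, had -0.03 and -0.06, and Rps27 had 0.01. The other members among the 8 with the lowest p on the lower side, Rpl23, Rpl21, Rps23, Rpl39 and Rps20, lay between -0.15 and -0.13.

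**Figure D3:**
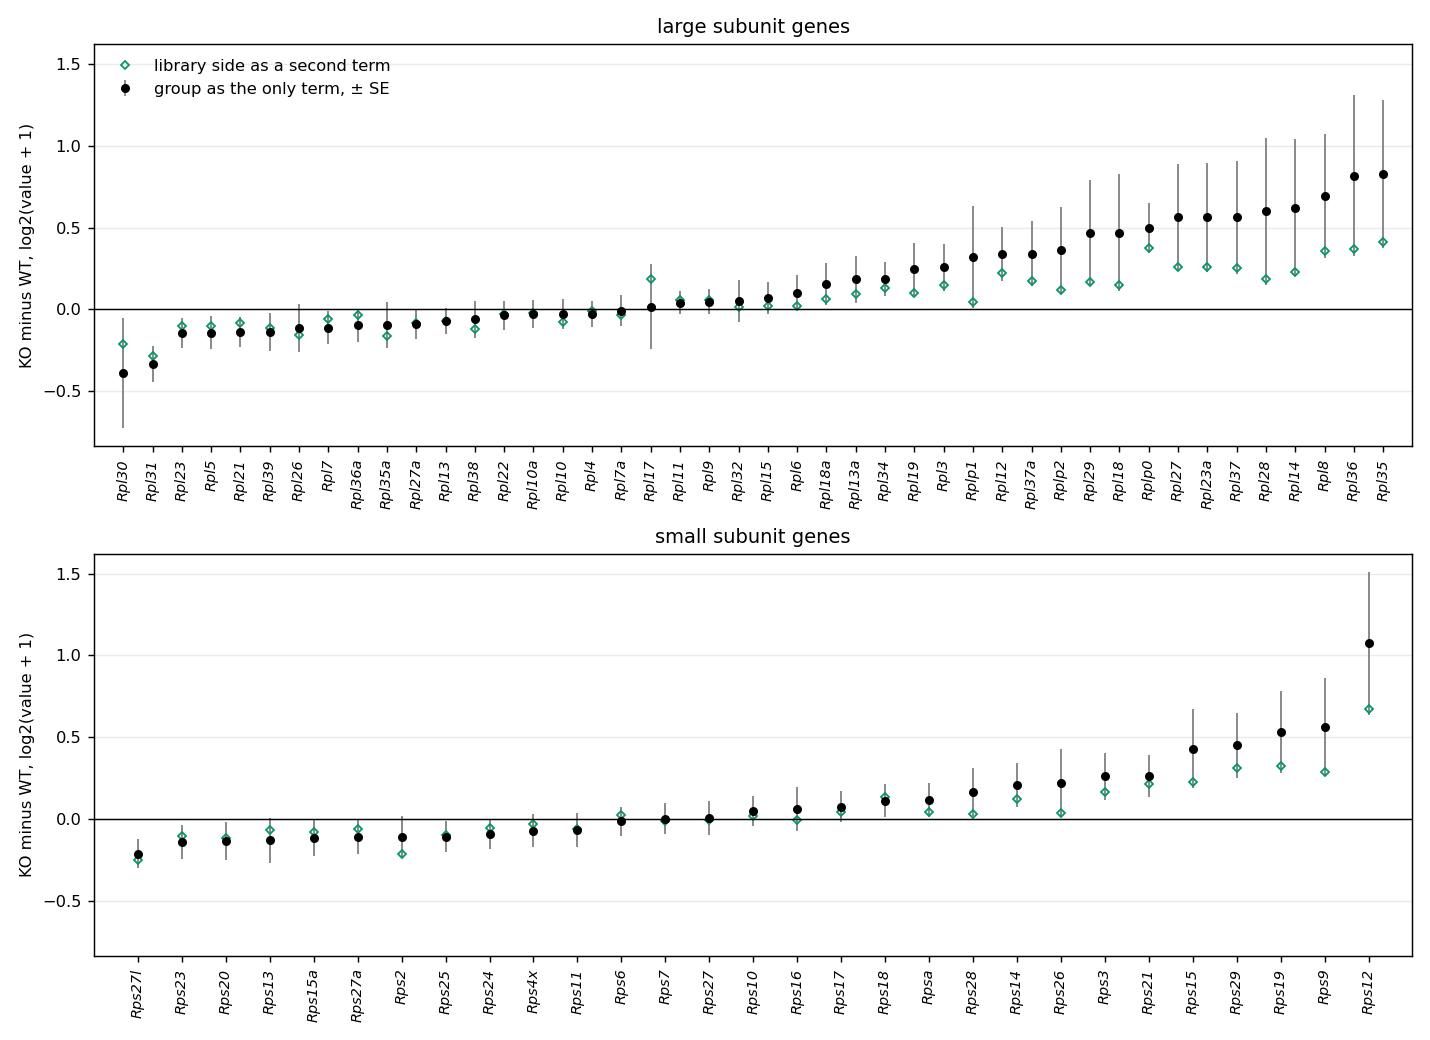
KO minus WT difference on the log2(value + 1) scale for tested large (top) and small (bottom) subunit genes; black points with SE bars are from the fit with group as the only term, and open diamonds from the fit with the side of the library as a second term. The black points run from -0.39 to 1.07, and the diamonds of the highest genes lie closer to 0.

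The spread across the 6 libraries, KO and WT together, was larger for many of these genes than for most genes, and it followed the sides. The median of the mean value was 124.8 in the members and 8.07 over all genes, and the log2(value + 1) scale understates differences of low genes. The difference between side A and side B had an SD of 0.478 over the 75 members and 0.242 over all genes. It exceeded 0.5 in either direction in 22 members (29.3%), against 5.07% of all genes, and 21 of the 22 were higher in side A. All values of side A lay above all of side B in 34 members (19.4% of all genes) and below in 6 (15.2% of all genes). The highest library was more than 2-fold above the lowest in 20 members, against 8.12% of all genes. The largest difference was that of Rpl36, 1.47, followed by 1.44 for Rps12, 1.38 for Rpl35 and 1.31 for Rpl28. Rpl35 was 76.1, 107.2 and 44.5 in KO and 30.0, 26.1 and 79.9 in WT. The lowest was -0.61, of Rpl30, which was 11.97 in KO 2 and between 27.3 and 34.5 in the other 5 libraries. WT 2 held the lowest value of 37 members and KO 2 that of 26, while KO 2 held the highest value of 27. No share over all genes is given for these counts, so they are not read as a trait of the members. The values were not rescaled, and WT 2 also had the lowest total over all genes, 674295, against up to 716255 in KO 1.

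The members with large differences between the sides were mostly those rich in G and C. Of the 21 over 0.5 higher in side A, 18 had a coding GC at or above the members' median of 52.7%. Rps12, with 51.3%, was among the exceptions. Across the 75 members, which share the same 6 libraries, the side difference and the GC content of the coding sequence had a Spearman's rho of 0.72. Within each library, the deviation from the gene's mean followed coding GC with a rho of 0.53 in KO 1, 0.72 in KO 2 and 0.63 in WT 3, and of -0.45 in KO 3, -0.71 in WT 1 and -0.69 in WT 2. Over 13385 tested genes the side difference followed the GC content of the longest transcript with a rho of 0.74, and over the members by that measure with 0.54. Rpl36 and Rpl30 had the highest and the lowest side difference and also the highest and the lowest coding GC of the tested members, 61.6% and 44.9%. Their first 60 coding bases, from the start codon and from the same transcripts as above, are given with G and C in capitals to show this contrast, 36 such bases in Rpl36 and 29 in Rpl30.
Rpl36: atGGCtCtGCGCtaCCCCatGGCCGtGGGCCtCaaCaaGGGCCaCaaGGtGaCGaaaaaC
Rpl30: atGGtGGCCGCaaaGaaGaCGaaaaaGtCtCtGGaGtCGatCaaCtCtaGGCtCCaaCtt

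**Figure D4:**
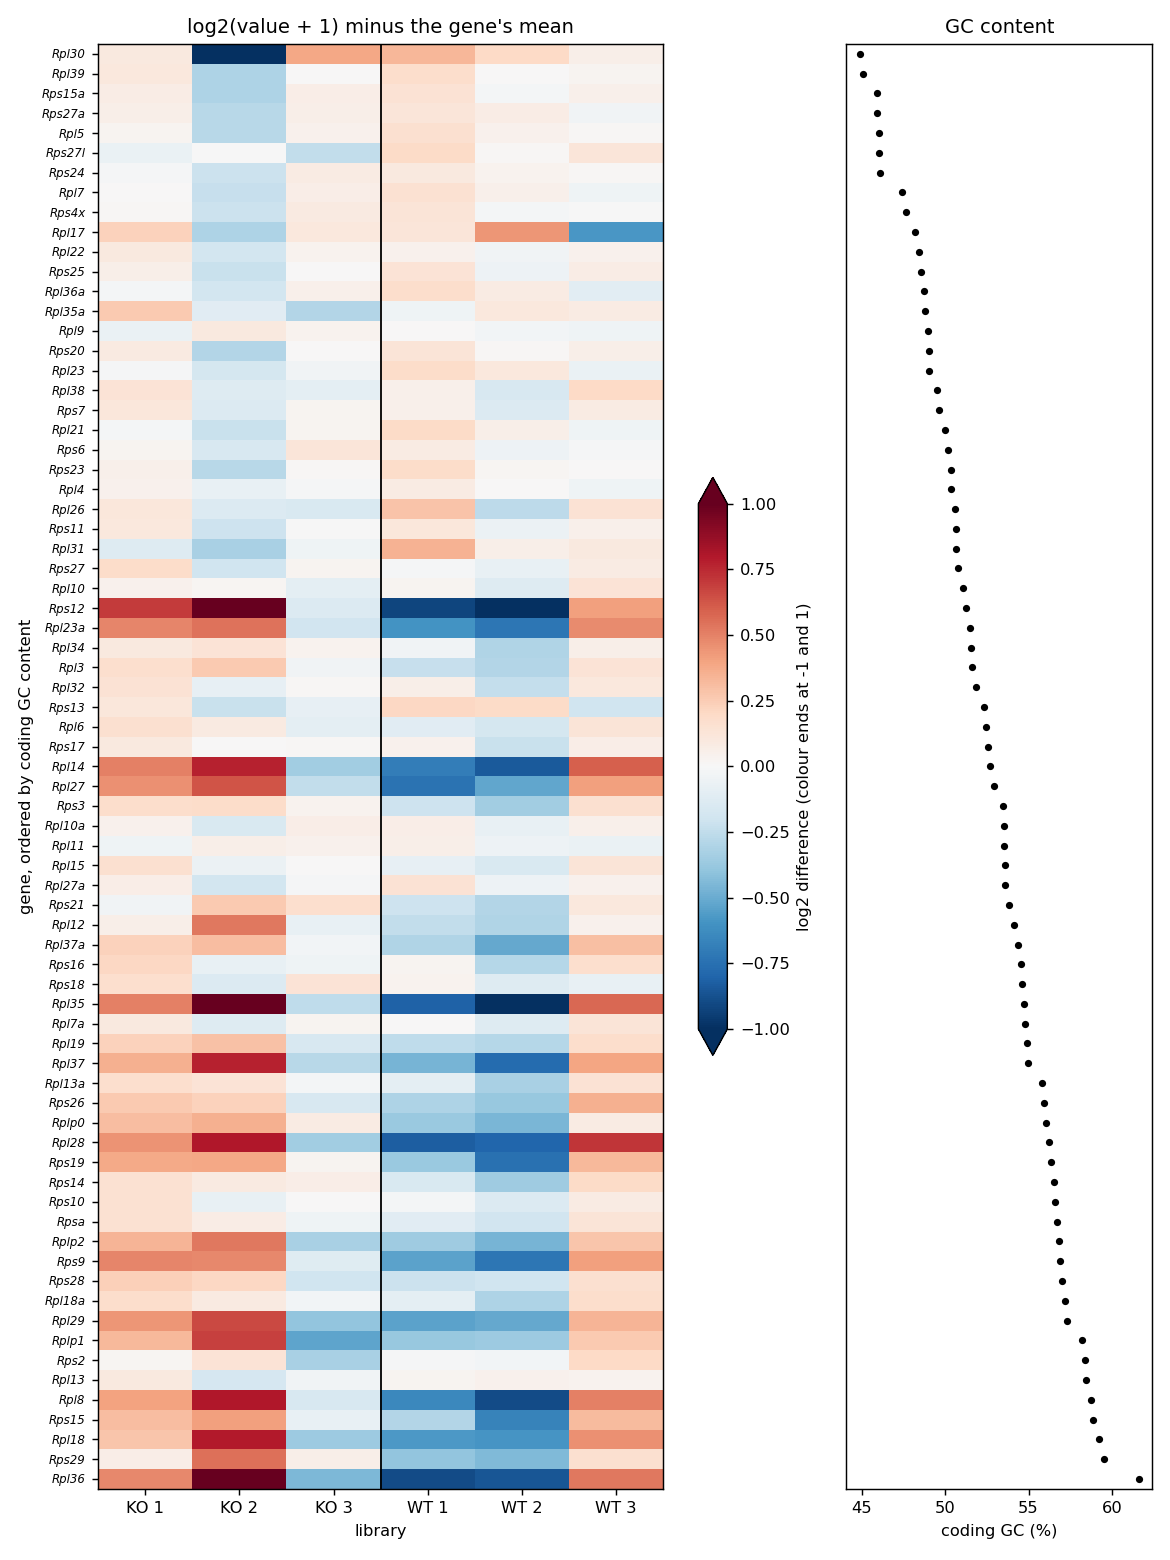
Log2(value + 1) of tested members minus the gene's mean over the 6 libraries (left, red higher, blue lower, columns are libraries, colours end at -1 and 1), ordered from low to high coding GC content, which is plotted in percent on the right. In most of the lower rows KO 1, KO 2 and WT 3 are red and KO 3, WT 1 and WT 2 blue, as in Rpl36 with 61.6% GC, and KO 2 is blue in most of the upper rows.

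Side A holds 2 KO libraries and side B holds 1, so the side difference and the KO minus WT difference overlap in this design. Over the 75 members, Spearman's rho between these 2 differences was 0.92. The part of either in the other was not tested. In the 38 members at or above the median coding GC of 52.7%, the median log2 difference between KO and WT was 0.29 and 33 were higher in KO. In the 37 below it, the median was -0.07 and 12 were higher. Across the 75 members rho between coding GC and the KO minus WT difference was 0.69. After each library was corrected for GC content of the longest transcript, the median over all members was 0.03, over the large subunit 0.04 and over the small subunit -0.0057. The split by coding GC remained: the median was 0.20 with 29 of 38 higher in the GC-rich members and -0.06 with 9 of 37 higher in the others. The correction and the split used different GC measures, and no correction by coding GC was run. Rpl30 had 44.9% in its coding sequence but 55.3% in its longest transcript, and the correction moved it from -0.39 to -0.53. The small subunit median was also below 0 without WT 2 (-0.016) or KO 1 (-0.014). The correction lowered the SD of the members' side difference from 0.478 to 0.432, against 0.176 left over all genes with a GC content. Of the erythroid markers, 6 of 8 tested were higher in KO and 2 lower, and their summed value ran from 1656 to 2968 in KO and from 1285 to 2638 in WT. None of the list's 11 listed genes lay at the floor, while the erythroid regulators Gata1 and Klf1 stayed below 0.25 in every library. The part of erythroid RNA, GC content or RNA quality in the side difference of these genes was not tested.

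Within a side, the comparison holds few libraries and no test. The sides also do not hold the whole first component, on which KO scored above WT within both. The scores were 10.66 and 21.6 against 9.598 in side A, and -4.805 against -16 and -21.05 in side B. The part of this component in the within-side and side-term differences was not tested. Between KO 1 and KO 2 and the single WT 3 the median difference of the members was -0.02, and between KO 3 and WT 1 and WT 2 it was 0.09. With the side as a second term in limma, 7 members were higher (8.04% of all genes) and 3 lower (4.34%) at an unadjusted p under 0.05, and 0 passed after adjustment, with a lowest adjusted p of 0.358. The higher ones included Rps12, Rplp0, Rps9, Rpl35, Rpl27 and Rpl23a, and the lower ones were Rpl31, Rps27l and Rps2. Rps12 was 0.67 higher and Rplp0 0.37 higher in that fit, against 1.07 and 0.50 with group alone. Rplp1 and Rplp2 came to 0.04 and 0.12, against 0.32 and 0.36. Within both sides 28 members were higher and 19 lower in KO, and over all 13911 genes 5474 were higher and 3809 lower, so a shared direction was common. Rps12, Rplp0, Rpl31 and Rps27l were among these members. Rplp0 was 0.25 higher in side A and 0.49 higher in side B, and Rps12 0.47 and 0.87 higher. Rpl31 was -0.32 and -0.25, and Rps27l -0.15 and -0.35.

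The count of members at an unadjusted p under 0.05, 4 in the full set, was 4 without KO 1 or WT 2 and 3 without KO 2, and moved further without each of the other 3 libraries. Without WT 3, 31 members had such a p in limma, 29 of them higher in KO (14.9% of all genes) and 2 lower (7.45%), with a lowest adjusted p of 0.132. Without KO 3 there were 20, 19 higher (9.51% of all genes) and 1 lower (3.64%), with a lowest adjusted p of 0.366. WT 3 and KO 3 stand on the other side from the rest of their group. Without WT 1 the count was 1, higher in KO (2.07% of all genes), and 0 lower (1.21%), with a lowest adjusted p of 0.908. In all 3 cases 0 members passed after adjustment.

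The pool of ribosomal protein transcripts, taken as the sum of deposited values, overlapped between the groups. The 78 genes summed to 42062, 39796 and 37581 in KO and to 36143, 31973 and 41234 in WT. These are 5.87%, 5.71% and 5.45% of the summed values of all genes in KO and 5.19%, 4.74% and 5.76% in WT. Their mean was 39813 ± 2241 (SD, n = 3) in KO and 36450 ± 4638 (SD, n = 3) in WT. KO thus stood at 109.2% of WT, a difference smaller than the SD of the WT libraries but larger than that of the KO libraries. The large subunit genes stood at 109.4% and the small subunit genes at 108.8% of WT. The ratio of the large to the small subunit sum was 1.86, 1.92 and 1.81 in KO and 1.87, 1.821 and 1.86 in WT, so it varied less between libraries than the sums did. Rpl13a, Rps3, Rpl32 and Rpl3 alone made up 25325 of the KO mean and 22447 of the WT mean. Without these 4 genes KO was 103.5% of WT. The 181 named pseudogenes summed to more than the genes themselves, 46698 ± 2768 (SD, n = 3) in KO and 45918 ± 3350 (SD, n = 3) in WT, or 101.7%. Fewer cells of a type and less RNA per cell cannot be told apart in such whole-organ libraries.

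**Figure D5:**
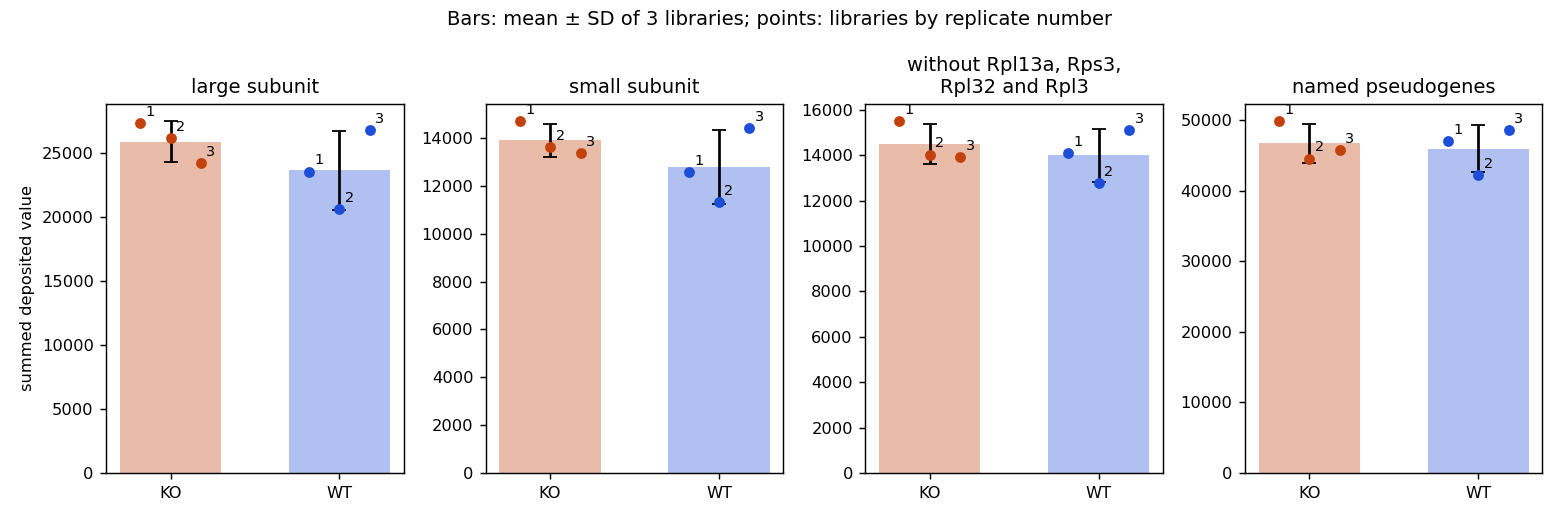
Summed deposited value per library of the large subunit genes, the small subunit genes, all members without the 4 highest, and the named pseudogenes; bars are means of 3 libraries with SD, and points are libraries with their replicate number. WT 3 lies between KO libraries in all 4 panels, and WT 2 is the lowest.

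Genes around the ribosome gave no call either, with 0 members of any of the 7 lists at an adjusted p under 0.05 in limma. At an unadjusted p under 0.05 there were 2 higher genes, both in the mTORC1 list, and the lower ones numbered 1 among the other ribosomal proteins, 3 mitochondrial, 3 of biogenesis and 4 translation factors. Over all genes 5.89% were higher and 4.36% lower at that p. Of the 7 ribosomal proteins outside the name rule, 5 were higher and 2 lower in KO, with a median of 0.04. In this list Rpl22l1, the paralog of Rpl22, had all KO values below WT (-0.23, SE 0.0922), and Rack1 overlapped (0.29, SE 0.164). Of 76 mitochondrial ribosomal proteins tested, 32 were higher and 44 lower with a median of -0.02, and 14 (18.4%) had all KO values below all WT values, against the 8.77% of all genes. Mrpl32 and Mrpl47 had the lowest p there, both with -0.21, and the GC correction moved Mrpl32 to -0.13. Of 51 genes of ribosome biogenesis and RNA polymerase I, 21 were higher and 30 lower, with a median of -0.04. The small subunit processome gene Wdr75 had -0.30 and the snoRNP core gene Nop58 -0.21.

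Of 38 translation factors, 18 were higher and 20 lower with a median of -0.01. All KO values lay below WT in 9 (23.7%), against 8.77% of all genes, and above in 1 (2.63%), against 7.67%. Eif3j1 had -0.21 and Eif2s2 -0.16, both initiation factors, without overlap between the groups, and the GC correction left -0.13 and -0.08. Of 25 genes of mTORC1 signalling and control of TOP mRNAs, 16 were higher and 9 lower with a median of 0.04. 2 brakes of the pathway had the lowest p, Ddit4 with 0.28 and Tsc2 with 0.23, and in both all KO values were above WT. With the GC correction they stood at 0.08 and 0.10. Of 13 snoRNA host genes 5 were higher and 8 lower, with a median of -0.05, led by the elongation factor Eef2 (0.45) and nucleolin, Ncl (-0.17). Of 13 tested p53 targets 6 were higher and 7 lower with a median of -0.01, and the cell-cycle inhibitor Cdkn1a (-0.25) and Trp53inp1 (-0.20) had the lowest p.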

How the data were processed

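RNA from E13.5 dorsal pancreata was purified on columns, and 500 ng per library went into the TruSeq v2 kit, which leaves strand unmarked, per the labels' protocols. The submitters' processing notes name CASAVA 1.82, Bowtie 0.12.7 and mm9. How reads were counted, how those with several matches were treated, and which annotation and normalization were used is not given in the sources used here. Each deposited file holds 1 signal per Ensembl gene, of a unit that the authors do not state. Symbols were found for 22624 of 24389 identifiers. Groups and replicate numbers came from the labels.

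Genes with a mean of at least 1 (13911) were tested on log2(value + 1), with no further scaling, in limma 3.58.1 (R 4.3.3, mean-variance trend, two-sided, group only), with Benjamini-Hochberg adjustment over all of them. On this scale changes of low genes are understated. With 3 against 3, no exact test can go below 0.1. The members, the gene lists and the alternatives were chosen with earlier results of these data known. Genes named are the 8 members with the lowest p in each direction, those whose symbol ends in l, the 3 highest and lowest of each subunit, 13 members of known role, Bicc1, and the 2 genes with the lowest p of each pathway list; others were named after their values were seen, and some single-gene results are not reported or drawn here. Words of 32 bases, exons, snoRNA genes and GC content came from GENCODE vM21 (GRCm38), with coding sequence of 1 principal transcript per gene. Alternatives covered 3 scalings (median ratio, total, upper quartile), other filters, another pseudocount (0.1) and threshold (0.10), robust moderation, the replicate block, a GC correction (loess, span 0.3), the side as a term, and each library left out. The fit was tested on simulated data with independent genes. In these libraries 1 component held 56.8% of the variance, so the simulation does not cover such shared variation. The deviations of same-numbered libraries from their group means had correlations of -0.216, -0.398 and -0.638. With 3 libraries per group and so large a component, these values cannot tell whether the numbers share a litter or batch.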

Additional observations from a re-analysis of the deposited data

How the results depend on the processing

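The count of members with an adjusted p under 0.05 was 0 in every alternative run, including the threshold of 0.10. At an unadjusted p under 0.05 it was 7 with equal totals, 2 with the replicate block and 3 to 5 under the other scalings, filters, pseudocount, moderation and GC corrections. Each replicate number holds 1 KO and 1 WT library, so the replicate block cannot change a log2 difference, and the median stayed at 0.06. The count with the block was 0, and Bicc1 had an adjusted p of 0.088 there in limma. Replicate numbers share no stated litter, and the correlations of the libraries' deviations cannot tell whether they were paired. The median of the small subunit turned to -0.0057 with the GC correction, which the block again cannot change. It turned to -0.055 within side A, where that of all members was -0.022. Leaving out 1 library at a time gave medians from -0.016 (without WT 2; -0.014 without KO 1) to 0.10 for the small subunit, 0.025 to 0.12 for all members and 0.040 to 0.13 for the large subunit. The KO sum was then 102.9% to 117.2% of WT for the large and 103.0% to 116.3% for the small subunit. Members with at most 20% of coding words elsewhere had medians of 0.39 (3 genes), 0.69 (large, Rpl8 alone) and 0.32 (small); those with under 25% in any 1 listed gene had 0.16 (all), 0.012 (large) and 0.32 (small). These alternatives and the within-side values were added after seeing the data.

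Of 45 named genes, 37 kept their direction in every alternative. The other filters and the replicate block cannot change a gene's log2 difference, so its direction there was fixed in advance. Sizes moved by over 1.5 times with the GC correction in Rps27l (-0.14), Rpl5 (-0.06), Rps20 (-0.04), Rpl13a (0.08), Nop58 (-0.12), Rpl22l1 (-0.14), Eef2 (0.26), Ncl (-0.09) and Trp53inp1 (-0.10) among others, and with the side term in Rps19 (0.33), Rps9 (0.29), Rpsa (0.04) and Rack1 (0.16) among others. Rps27 turned to -0.0019, -0.0060 and -0.0081 with the median-ratio, total and upper-quartile scalings, -0.13 with the GC correction and -0.0088 with the side term. The GC correction also turned Rpl32 to -0.0047 and Rpl11 to -0.047, and the side term Rps6 to 0.023. With 1 library left out, Rps27 ranged from -0.083 to 0.11, Rpl32 from -0.058 to 0.12, Rps6 from -0.075 to 0.065, Rps4x from -0.13 to 0.016, Rpl22 from -0.090 to 0.049, Rpl10 from -0.097 to 0.036 and Rpl38 from -0.16 to 0.026. The search for words in a reference genome was not run, and transcripts were searched in its place. With depth unknown and matching sequence in the copies, a difference in reads placed elsewhere could not be seen.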

Other observations

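Several rows near the name rule held values as high as the members. The matching Rpl6l, left out as a pseudogene, was 577.1, 519.0 and 515.5 in KO and 533.2, 503.2 and 545.2 in WT, while its parent Rpl6 is among the members. Rps4l, also left out, was 17.1, 19.1 and 11.3 in KO and 10, 8.97 and 16.3 in WT. The rule does not take Rps3a1, a core small subunit protein, which had a mean of 1171, below its copies Rps3a2 with 1763 and Rps3a3 with 1444. Rpl37rt, a retrogene of Rpl37, had 736.1, and Rps27rt had 1389. 2 low pseudogenes of Rpl36 also followed the sides. Rpl36-ps3 was 15.0, 26.6 and 5.56 in KO and 3.44, 2.74 and 16.7 in WT, a side difference of 2.05. Rpl36-ps12 had a side difference of 1.95. The highest named pseudogenes varied less between libraries, such as Rpl39-ps with 3984, 3196 and 3794 in KO and 4241, 3905 and 3678 in WT.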
